A study of Cucumis sativus with 4 samples.

Results

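Among the genes of the cucumber first true leaf, 224 lay in runs of consecutive locus IDs that differed in the same direction between CsTCP18a-RNAi leaves and wild type leaves, out of 17585 genes in the deposited table. These members were chosen by their measured values. For each gene the mean log2(normalised CPM + 1) of the 2 wild type (WT) libraries was subtracted from that of the 2 RNAi libraries, and this value is called the difference below. A run was a stretch of 3 or more genes within one ID prefix, Csa1G to Csa7G, whose ID numbers rose by 10 and whose differences were all at least 1.5 or all at most -1.5. A step below means 10 ID numbers. The rule found 77 runs with 250 IDs. It then removed 5 genes with a mean over the 4 libraries of 500 normalised CPM or more. It also removed 21 near-silent genes. These averaged at least 10 normalised CPM in one group while neither library of the other group reached 0.5. The 224 members come from 76 of the runs, and 60 runs kept at least 3 members. Since the RNAi minus WT difference chose the members, their differences are given as a description and were not tested.

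The RNAi group held 2 libraries of the inbred line R1461 transformed, with Agrobacterium strain GV3101, with an RNA interference construct made from a 402-bp piece of the CsTCP18a coding sequence. The WT group held 2 libraries of plants transformed in the same way with the empty PFGC-1008 vector, so both groups went through transformation. All leaves came from plants 20 days old, kept in a growth chamber with a 16 h day and an 8 h night. The labels state neither the number of transgenic lines nor whether each library stands for another plant, so the spread between replicates may be technical. Each sample was a whole leaf. Fewer cells of a type and less RNA per cell therefore cannot be told apart in any of the values.

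CsTCP18a encodes a transcription factor of the plant TCP family and is related to BRANCHED1, which in other plants restrains the growth of axillary buds. Neighbouring genes in plant genomes are often copies of each other that arose by tandem duplication, and such copies may keep similar promoters. Some specialised metabolic pathways, in cucumber that of the bitter cucurbitacins, have several of their genes side by side. Neighbours may also share chromatin state or overlap in transcription, and a read counter may assign reads of overlapping or near-identical genes to either. The table pairs no ID with a name, and 0 of its 17585 IDs matched the RefSeq gene table of Cucumber_9930_V3. No gene name, role or sequence is therefore given to any member, and the level of CsTCP18a and leaf markers were not analysed here. The files do not say that ID numbers follow the order of genes on a chromosome, and "neighbouring" means consecutive in ID.

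Gene-assigned reads per library ranged from 18930131 to 27664402, and 1 read was worth between 0.0319 and 0.0573 normalised CPM. The libraries of a group correlated at 0.994 (RNAi) and 0.971 (WT) across genes (Pearson's r of log2(normalised CPM + 1)). The median gap between the libraries of a group was 0.12 log2 units in RNAi and 0.24 in WT. CPM values are not divided by gene length, so levels are compared between libraries and not between genes.

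The higher and lower runs were nearly equal in number. In the RNAi leaves 39 runs were higher, with 128 IDs and 115 members, and 38 runs were lower, with 122 IDs and 109 members. A difference of at least 1.5 was met by 13.4% of the 17506 genes with a numbered prefix, and one of at most -1.5 by 11.7%. Most of these genes stood alone: 1698 of 2346 on the higher side and 1539 of 2043 on the lower side had no neighbour past the same threshold. A further 520 and 382 formed pairs. Genes counted as alone include those whose neighbouring ID numbers have no row, as the table holds only 12118 pairs of consecutive IDs. The runs thus hold 5.46% of the genes past the higher threshold and 5.97% of those past the lower one. The split depends on scaling. With plain CPM, in which all columns have the same sum, the rule gives 190 members in higher runs and 81 in lower runs. That scaling moves the median difference of all genes to 0.39, against 0.03 with the deposited values.

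Higher runs had 3 IDs in 28 cases and 4 IDs in 11 cases. Lower runs had 3 IDs in 32 cases, 4 IDs in 4 cases and 5 IDs in 2 cases. The difference of the members in higher runs ranged from 1.51 to 5.95 with a median of 2.39, and that of the members in lower runs from -5.85 to -1.52 with a median of -2.58. At the upper end, Csa3G777560 had 135 and 129 normalised CPM in the RNAi libraries, against 1.09 and 1.2 in the WT libraries. At the lower end, Csa4G285760 had 1.68 and 1.56 in the RNAi libraries, against 133 and 169.8 in the WT libraries. In both the libraries of a group lay close together and the groups far apart. A size of at least 3 log2 units was reached by 38 members of higher runs and 39 members of lower runs. The values of the RNAi libraries and of the WT libraries did not overlap for any of the 224 members, against 83.6% of all 17585 genes without overlap. In limma's moderated test over 17491 genes, at a Benjamini-Hochberg adjusted p under 0.05, 115 of 115 members were called higher (31.0% of all genes tested were) and 108 of 109 were called lower (29.5% of all genes tested were). Over all genes limma called 5427 higher and 5165 lower, against 7534 and 3477 with plain CPM. The rule used the same contrast, so nothing is read from these counts.

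**Figure D1:**
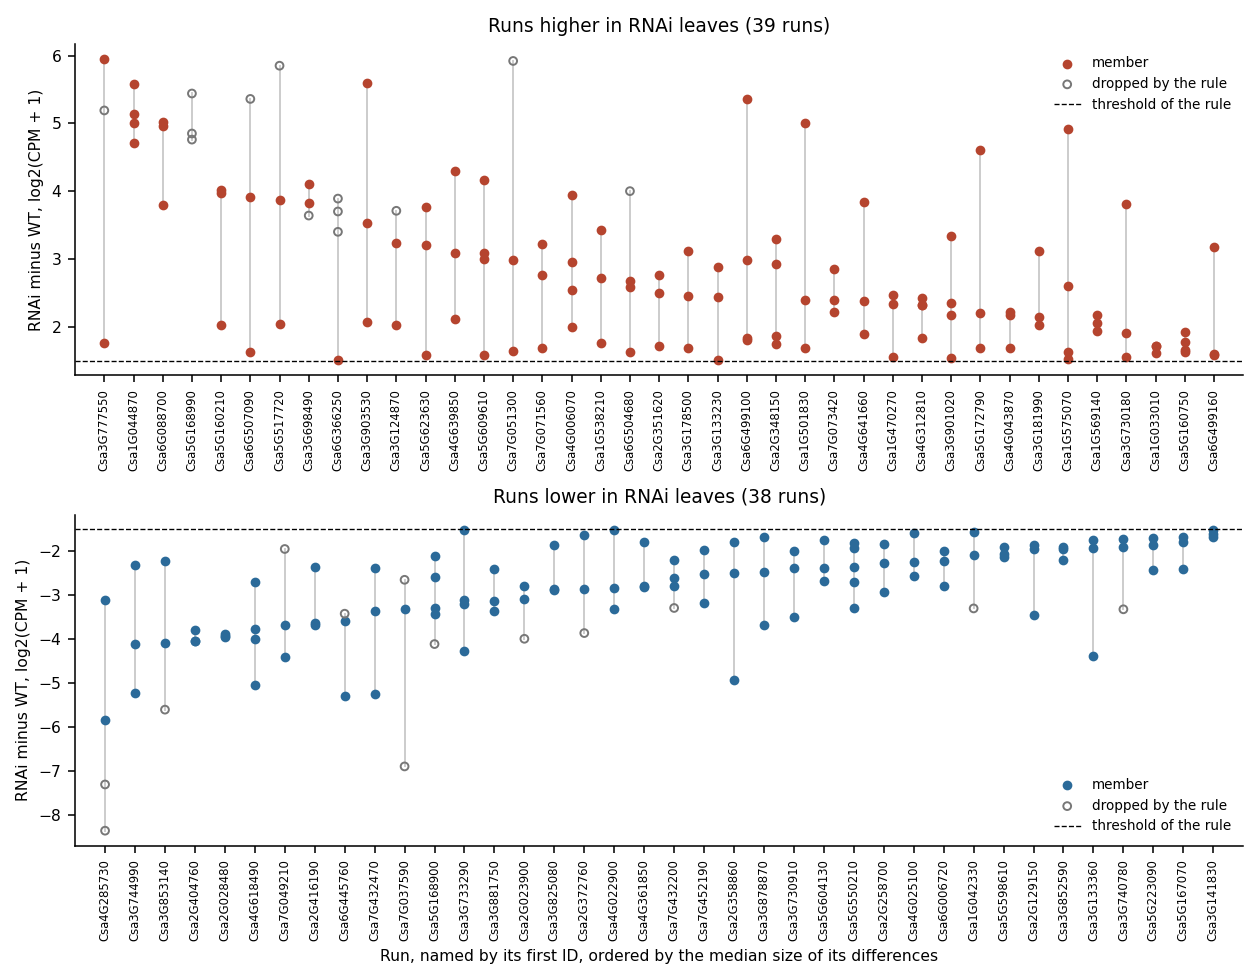
Each column is 1 run, named by its first ID; the vertical axis gives the RNAi minus WT difference on the log2(normalised CPM + 1) scale. Filled points are the 115 (upper panel) and 109 (lower panel) members, open points the genes that the rule removed, grey lines join the IDs of a run, and the dashed line is the threshold of 1.5 or -1.5; some runs are tight, others span more than 3 log2 units.

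All members together took up under 1% of any library. The 115 members of higher runs together made up 0.722% and 0.738% of the summed signal in RNAi replicates 1 and 2, against 0.0609% and 0.0645% in WT replicates 1 and 2. The 109 members of lower runs made up 0.135% and 0.143% in RNAi replicates 1 and 2, against 0.767% and 0.844% in WT replicates 1 and 2. Both shifts follow from the choice of members. Depth was thin on the low side of some of them: 15 members of higher runs had under 10 reads over both WT libraries, 4 of these with 0 reads, and 15 members of lower runs had under 10 reads over both RNAi libraries. Zero reads allow up to 0.107 and 0.0957 normalised CPM in RNAi replicates 1 and 2, and up to 0.131 and 0.172 in WT replicates 1 and 2 (3 reads each, counting error only).

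The run from Csa1G044870 to Csa1G044900 had the largest median difference of the higher runs with 4 IDs, and all its IDs were members. Csa1G044870 had 113 and 119 normalised CPM in the RNAi libraries, against 3.50 and 0.344 in the WT libraries, a difference of 5.58. For Csa1G044880 the RNAi libraries held 85.2 and 98.0 normalised CPM and the WT libraries 3.50 and 1.78, a difference of 4.71. All 4 genes were low in both WT libraries, and each was lower in WT replicate 2 than in replicate 1. Csa1G044890 reached 279.6 and 332 normalised CPM in the RNAi libraries, against 13.4 and 4.24 in the WT libraries (difference 5.14). Csa1G044900 reached 114 and 129.8 in the RNAi libraries, against 4.81 and 1.49 in the WT libraries (difference 5.01). The differences of the 4 genes lie within 0.87 log2 units, and the run ends abruptly on both sides. Csa1G044860, the ID before it, had 16.3 and 14.5 normalised CPM in the RNAi libraries, against 17.9 and 14.6 in the WT libraries. Csa1G044910, the ID after it, had 7.14 and 5.68 in the RNAi libraries, against 7.21 in each WT library. Their differences of -0.07 and -0.16 stand beside a difference of about 5 in each gene of the run.

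The run from Csa6G088700 to Csa6G088720 came next in median among the runs that kept all their IDs, and its smallest difference was 3.79. Csa6G088700 had 95.3 and 117 normalised CPM in the RNAi libraries, against 4.81 and 0.859 in the WT libraries (difference 5.02). Csa6G088710 had 138 and 164 in the RNAi libraries, against 6.29 and 2.23 in the WT libraries (difference 4.96). Csa6G088720 had 19.7 and 18.1 in the RNAi libraries, against 0.219 and 0.687 in the WT libraries (difference 3.79), the WT values resting on 5 and 12 reads. The first pair was again lower in WT replicate 2, the last gene lower in WT replicate 1. No ID within 5 steps on either side of this run has a row in the table, so its surroundings cannot be described.

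The run from Csa7G073420 to Csa7G073440 had a median difference of 2.39 and a range of 0.63. Csa7G073420 had 28.3 and 32.7 normalised CPM in the RNAi libraries, against 4.33 and 7.56 in the WT libraries. Csa7G073430 had 32.5 and 33.9 in the RNAi libraries, against 2.58 and 5.33 in the WT libraries. Csa7G073440 had 11.5 and 12.4 in the RNAi libraries, against 0.568 and 2.86 in the WT libraries. WT replicate 1 was the lowest library for each of the 3 genes. The next ID, Csa7G073450, went the other way, with 1.43 and 3.16 normalised CPM in the RNAi libraries, against 27.1 and 48.2 in the WT libraries, a difference of -3.55. The ID before the run, Csa7G073410, had a difference of -0.26.

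The run from Csa4G639850 to Csa4G639870 was less even, with differences from 2.11 to 4.29. Csa4G639850 had 80.5 and 75.9 normalised CPM in the RNAi libraries, against 3.41 and 2.69 in the WT libraries (difference 4.29). Csa4G639860 had 3.85 and 2.84 in the RNAi libraries and 0 reads in both WT libraries (difference 2.11). Csa4G639870 had 38.5 and 28.6 in the RNAi libraries, against 0.743 and 8.25 in the WT libraries (difference 3.09), so the WT libraries alone differed by 2.41 log2 units there. The ID before this run, Csa4G639840, had 24.8 and 25.4 normalised CPM in the RNAi libraries, against 22.3 and 26.7 in the WT libraries, a difference of 0.04. The number directly after the run has no row. At 2 steps after it, Csa4G639890 had 166 and 162 in the RNAi libraries, against 0 and 0.344 in the WT libraries, a difference of 7.15. The narrowest range among higher runs that kept at least 3 members was that of the run from Csa1G033010 to Csa1G033030, with differences of 1.72, 1.72 and 1.62, all close above the threshold. Csa1G033010 had 20.9 and 17.8 normalised CPM in the RNAi libraries, against 5.51 and 4.81 in the WT libraries. Csa1G033020 had 3.92 and 3.38 in the RNAi libraries, against 0.612 and 0.229 in the WT libraries. Csa1G033030 had 34.9 and 31.0 in the RNAi libraries, against 10.4 and 9.73 in the WT libraries. The libraries of each group were close and the groups did not overlap. The ID before it, Csa1G033000, had a difference of -1.09, and Csa1G032990, 2 steps before the run, one of 2.88.

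Among higher runs that kept at least 3 members, the one with the widest range, from Csa6G499100 to Csa6G499130, lies in a stretch where the direction changes several times. Csa6G499130 had 62.8 and 60.3 normalised CPM in the RNAi libraries, against 0.481 and 0.573 in the WT libraries (difference 5.36). The differences of the 3 genes before it were smaller on this scale, where the added 1 shrinks differences at low levels. Csa6G499100 had 8.49 and 7.4 normalised CPM in the RNAi libraries, against 1.84 and 1.32 in the WT libraries (difference 1.80). Csa6G499110 had 8.99 and 5.61 in the RNAi libraries, against 0 and 0.0573 in the WT libraries (difference 2.98). Csa6G499120 had 2.75 and 3.73 in the RNAi libraries, against 0.306 and 0.0573 in the WT libraries (difference 1.84). The genes around them are not alike in direction. Csa6G499090, directly before the run, had 20.9 and 17.1 normalised CPM in the RNAi libraries, against 354 and 295 in the WT libraries (difference -4.02). Directly after it, Csa6G499140 had a difference of -0.98, and Csa6G499150 had 4.42 and 5.36 normalised CPM in the RNAi libraries, against 80.5 and 56.4 in the WT libraries (difference -3.54). The next IDs, Csa6G499160 to Csa6G499180, form another higher run with differences of 1.60, 1.58 and 3.18. Thus 2 higher runs lie 3 steps apart with strongly lower genes before and between them.

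The run from Csa6G366250 to Csa6G366280 has 4 IDs, of which 3 were removed as near-silent in WT. Its remaining member, Csa6G366280, had 2.11 and 2.36 normalised CPM in the RNAi libraries, against 0 and 0.286 in the WT libraries (0 and 5 reads), a difference of 1.51. Without WT replicate 1 or without RNAi replicate 2 this member falls short of the threshold and the run does not keep all its IDs. The next ID, Csa6G366290, had a difference of 0.88.

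**Figure D2:**
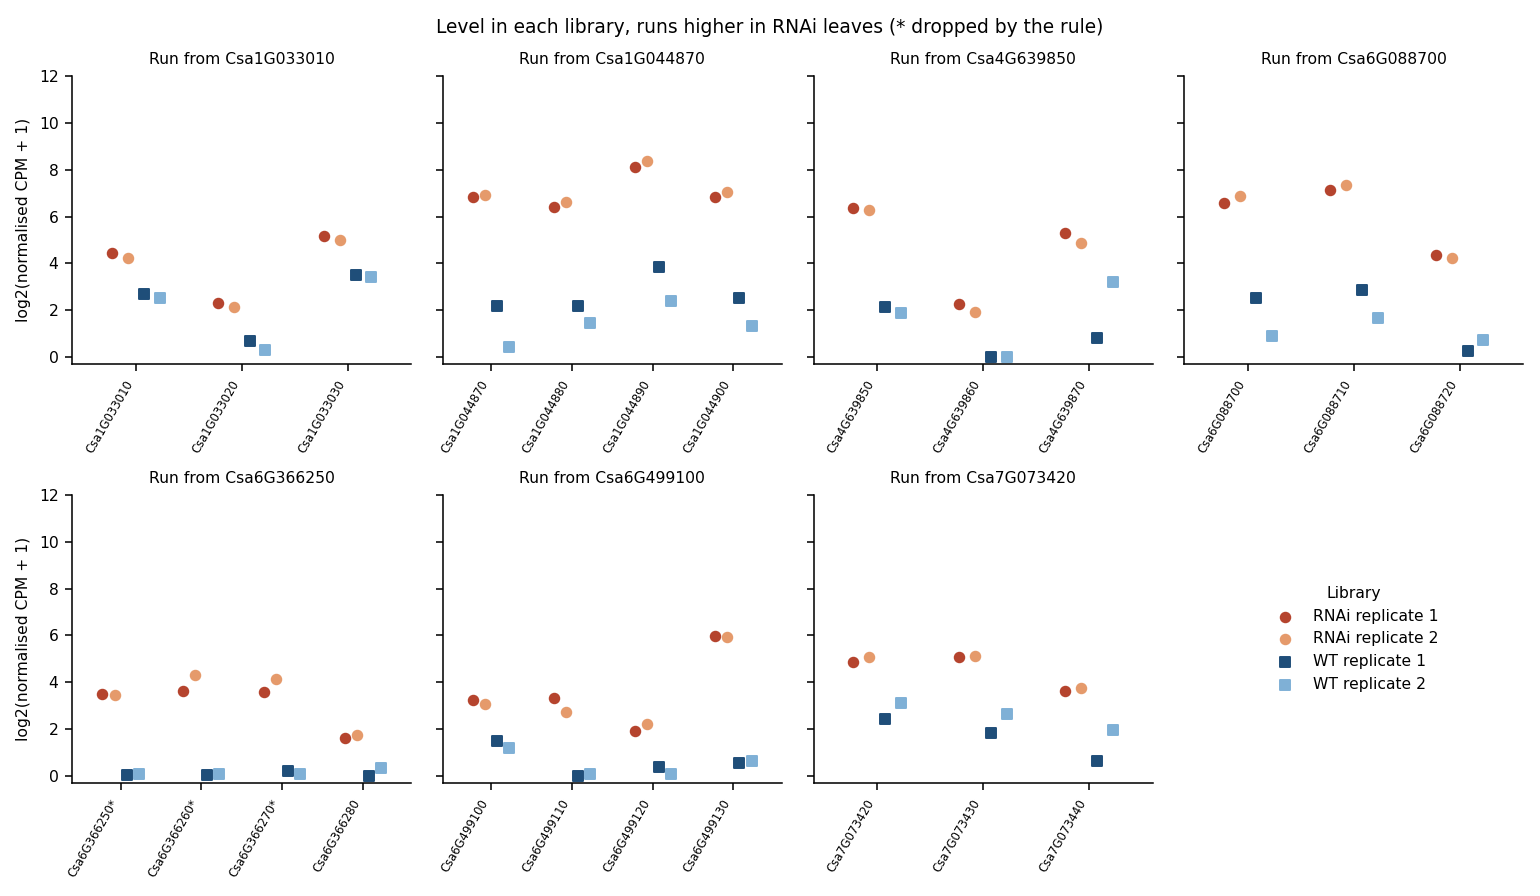
Level of each ID of the 7 named higher runs on the log2(normalised CPM + 1) scale; circles are the RNAi libraries and squares the WT libraries, with 1 panel per run and IDs in order along the horizontal axis. In each gene both circles lie above both squares, and in the run from Csa1G044870 the WT replicate 2 square lies below that of WT replicate 1 for all 4 genes.

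Among the lower runs, those with the most IDs were the run from Csa5G550210 to Csa5G550250 and the run from Csa5G168900 to Csa5G168940, with 5 IDs each. In the first of these all IDs were members, with differences between -3.30 and -1.83. Csa5G550210 had 8.21 and 7.59 normalised CPM in the RNAi libraries, against 90.1 and 82.8 in the WT libraries. Csa5G550220 had 1.11 and 1.24 in the RNAi libraries, against 6.6 and 6.87 in the WT libraries. Csa5G550230 had 5.10 and 4.98 in the RNAi libraries, against 28.5 and 17.1 in the WT libraries. The RNAi libraries were low and close to each other in each. Csa5G550240 had 4.60 and 4.85 normalised CPM in the RNAi libraries, against 49.2 and 27.2 in the WT libraries. Csa5G550250 had 0.607 and 1.02 in the RNAi libraries, against 9 and 7.84 in the WT libraries. The ID before the run, Csa5G550200, was higher in the RNAi leaves by 0.97, and none of the 5 numbers after the run has a row.

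In the run from Csa5G168900 to Csa5G168940 the rule removed Csa5G168910 for its abundance, which had 85.8 and 96.5 normalised CPM in the RNAi libraries, against 1367 and 1876 in the WT libraries. Csa5G168900 had 8.10 and 9.28 in the RNAi libraries, against 43.0 and 40.0 in the WT libraries (difference -2.13). Csa5G168920 had 5 and 5.58 in the RNAi libraries, against 53.8 and 82.7 in the WT libraries (difference -3.43). From here on WT replicate 2 was the highest library in each member. Csa5G168930 had 1.71 and 1.88 normalised CPM in the RNAi libraries, against 19.7 and 35.3 in the WT libraries (difference -3.29). Csa5G168940 had 0.642 and 0.478 in the RNAi libraries, against 5.55 and 12.4 in the WT libraries (difference -2.59). This run borders on genes of the other direction. Csa5G168950, directly after it, had 9.10 and 8.80 normalised CPM in the RNAi libraries, against 1.70 and 1.03 in the WT libraries, a difference of 2.09. A higher run begins 5 steps after its last ID, Csa5G168990 to Csa5G169010, whose 3 IDs were all removed as near-silent in WT. Directly before the lower run, Csa5G168890 had a difference of -1.44, just short of the threshold.

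The run from Csa2G028480 to Csa2G028500 had, among lower runs that kept at least 3 members, the largest smallest difference and the narrowest range, with 0.08 log2 units between its members. Csa2G028480 had 29.3 and 30.8 normalised CPM in the RNAi libraries, against 414 and 563 in the WT libraries. Csa2G028490 had 10.8 and 11.7 in the RNAi libraries, against 148 and 219 in the WT libraries. Csa2G028500 had 19.0 in each RNAi library, against 277 and 336 in the WT libraries. The differences were -3.96, -3.89 and -3.94, which correspond to CPM + 1 values lower by 15.6, 14.8 and 15.3 times. WT replicate 2 was the higher WT library for all 3 genes. None of the 5 ID numbers on either side has a row in the table.

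In the run from Csa2G404760 to Csa2G404780 the differences were -4.05, -3.81 and -4.05. Csa2G404760 had 39.1 and 38.6 normalised CPM in the RNAi libraries, against 664 and 655 in the WT libraries. Csa2G404770 had 5.57 and 6.12 in the RNAi libraries, against 91.4 and 97.9 in the WT libraries. Csa2G404780 had 1.57 and 2.14 in the RNAi libraries, against 55.1 and 38.6 in the WT libraries. Here the WT libraries were close to each other for the first pair of genes. The IDs next to the run were not lower: Csa2G404750 had a difference of 0.72 and Csa2G404790 one of 0.14.

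The run from Csa4G618490 to Csa4G618520 had differences from -5.06 to -2.70. Csa4G618490 had 5.57 and 7.81 normalised CPM in the RNAi libraries, against 124 and 118 in the WT libraries. Csa4G618500 had 1.25 and 1.69 in the RNAi libraries, against 36.1 and 29.8 in the WT libraries. Csa4G618510 had 3.53 and 4.50 in the RNAi libraries, against 29.2 and 34.1 in the WT libraries. RNAi replicate 2 was above RNAi replicate 1 in each. Csa4G618520 had 3.75 and 10.3 normalised CPM in the RNAi libraries, against 250.0 and 237 in the WT libraries. Its gap of 1.26 log2 units was the widest between the RNAi libraries among all members of lower runs. The next ID, Csa4G618530, had a difference of -0.11. The number directly before the run has no row, and Csa4G618470 and Csa4G618460 before that had differences of -1.61 and -1.43.

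Among lower runs that kept at least 3 members, the one with the widest range, from Csa2G358860 to Csa2G358880, had differences of -2.50, -4.94 and -1.80. Csa2G358870, in its middle, had 0.5 and 0.638 normalised CPM in the RNAi libraries, against 43.5 and 50.8 in the WT libraries. Csa2G358860 had 0.143 and 0.128 in the RNAi libraries (4 reads each), against 4.68 and 6.24 in the WT libraries. Csa2G358880 had 1.61 and 1.34 in the RNAi libraries, against 10.2 and 5.61 in the WT libraries. Without WT replicate 1 its difference falls short of the threshold and the run is no longer found whole. No ID number within 5 steps of this run has a row.

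**Figure D3:**
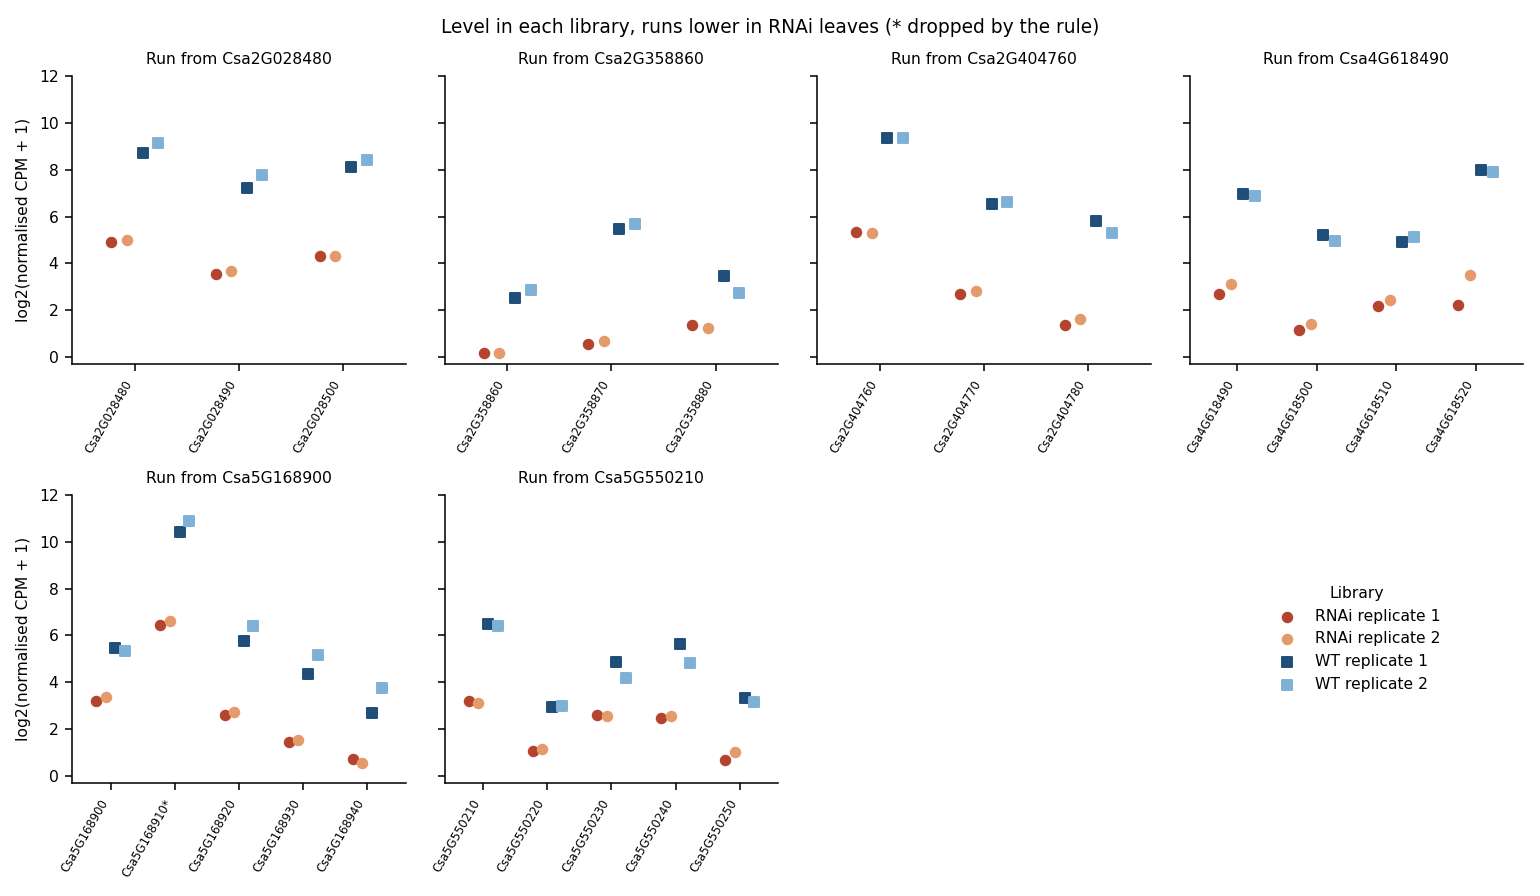
Level of each ID of the 6 named lower runs on the log2(normalised CPM + 1) scale; circles are the RNAi libraries and squares the WT libraries, with 1 panel per run. In each gene both circles lie below both squares, and the 3 genes of the run from Csa2G028480 have nearly equal differences, from -3.96 to -3.89.

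Genes within a run differed in the size of the difference, while the rule had fixed their shared direction. The added 1 in log2(normalised CPM + 1) shrinks differences of genes at low levels. A range within a run therefore reflects the levels of its genes as well as their fold changes. Over the 31 higher runs that kept at least 3 members, the range of differences within a run had a median of 1.55 and went from 0.10 to 3.56. Over the 29 such lower runs it had a median of 1.09 and went from 0.08 to 3.14. A range under 1 log2 unit was seen in 8 higher and 12 lower runs, and a range of 2 or more in 10 higher and 6 lower runs. The differences of neighbouring members showed no rank relation in higher runs and a loose one in lower runs: Pearson's r of the differences was 0.17 and Spearman's rho 0.00 over 76 pairs in higher runs, and r was 0.21 and rho 0.27 over 69 pairs in lower runs. These are descriptions over pairs that share the same libraries, and the threshold limits the values from one side.

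By the rule, each run ended next to an ID that did not pass the same threshold or next to an ID number without a row. Of the 154 run ends, 95 had a row at the next ID. At the next ID of higher runs the median difference was -0.27 over 47 genes, and 17 of these were higher in the RNAi leaves and 30 lower. At the next ID of lower runs it was 0.12 over 48 genes, with 22 lower and 26 higher. The rule itself keeps these genes from passing the same threshold. In 9 of the 95 cases the next ID passed the threshold of the other direction, as in Csa6G499090, Csa7G073450 and Csa5G168950 above. These were 6 of 47 genes next to higher runs and 3 of 48 next to lower runs. Of all genes with a numbered prefix, 11.7% had a difference of at most -1.5 and 13.4% one of at least 1.5, so nothing is read from this count. At 2 steps from the end the rule sets no such limit, so these values are not like those at the next ID. There the median difference was 0.23 over 47 genes for higher runs and -0.36 over 46 genes for lower runs. In these, 9 and 11 genes were past the same threshold and 3 and 1 past the other one. At 3 steps the medians were 0.25 over 45 genes and -0.20 over 40 genes. At 4 steps they were 0.20 over 37 genes and 0.30 over 41 genes. At 4 steps 5 and 4 genes were past the same threshold, and 7 and 11 past the other one. At 5 steps the medians were 0.30 over 40 genes for higher runs and 0.17 over 36 genes for lower runs.

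**Figure D4:**
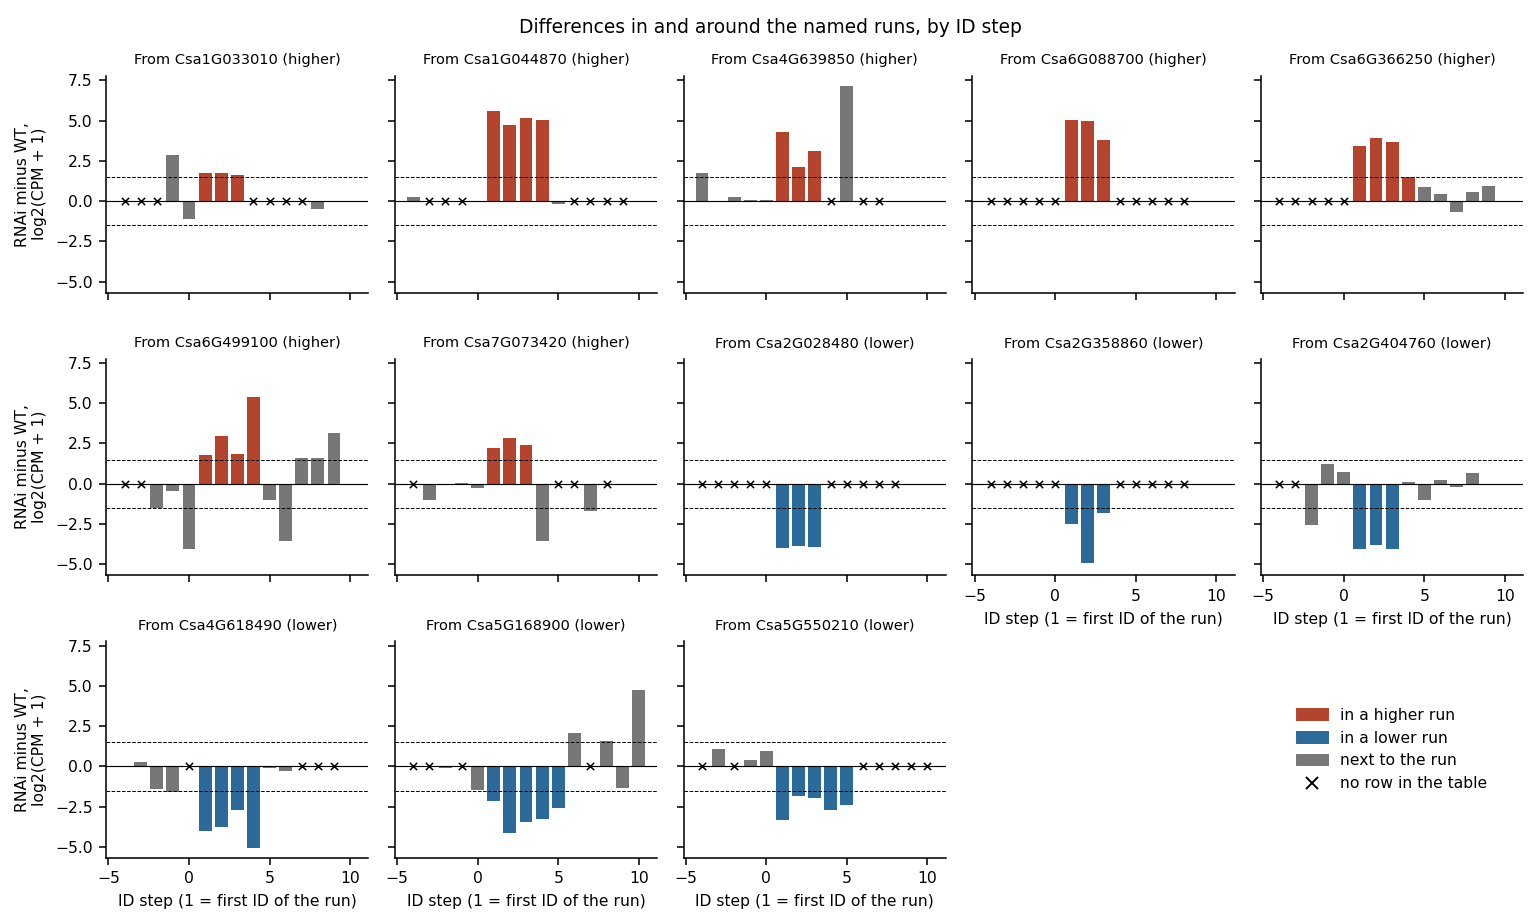
RNAi minus WT difference on the log2(normalised CPM + 1) scale of each ID in the 13 named runs (coloured bars) and of the 5 ID numbers on either side (grey bars), by ID step counted from the first ID of the run; crosses mark ID numbers without a row in the table and dashed lines the thresholds of 1.5 and -1.5. The bars beside the run from Csa1G044870 are near 0, whereas beside the run from Csa6G499100 the bars before it and the first 2 after it point down, and the 3 that follow point up.

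Members close to the threshold show how the rule divides genes. The member with the smallest difference among the higher runs was Csa3G133230, with 3.64 and 2.26 normalised CPM in the RNAi libraries, against 0.874 and 0 in the WT libraries, a difference of 1.507. Among genes directly next to a higher run, Csa3G901060 came closest from outside, with 7.64 and 9.22 in the RNAi libraries, against 3.63 and 2.58 in the WT libraries, a difference of 1.207. On the lower side the member with the smallest size was Csa3G141830, with 0.321 and 0.191 in the RNAi libraries, against 2.14 and 3.09 in the WT libraries, a difference of -1.515. Csa2G372790, directly next to a lower run, had 13.5 and 14.6 in the RNAi libraries, against 39.0 and 43.3 in the WT libraries, a difference of -1.483.

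The runs occurred in each of the 7 numbered prefixes, and the higher and lower ones were not spread alike. Csa3G, with 3687 IDs in the table, held 9 higher and 11 lower runs, and Csa5G, with 2310 IDs, held 7 and 6. In Csa1G there were 7 higher runs and 1 lower run among 2559 IDs, and in Csa6G 6 higher and 2 lower runs among 2920 IDs. Csa2G went the other way, with 2 higher and 8 lower runs among 2169 IDs. Csa4G held 5 of each and Csa7G 3 higher and 5 lower runs. Members made up between 0.719% (Csa6G) and 1.73% (Csa5G) of the IDs of a prefix. No test of these counts was made, since neighbouring genes are not independent. All genes past each threshold were not counted by prefix, so uneven runs cannot be told from an uneven background. Successive runs of a prefix had a median of 1394 steps between them, and 3 pairs of runs lay within 20 steps of each other. Many ID numbers have no row, so the steps do not count the genes between runs. In these pairs the directions were higher and higher (Csa6G499100 and Csa6G499160), lower and higher (Csa5G168900 and Csa5G168990), and higher and lower (Csa3G133230 and Csa3G133360).

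The difference between the 2 libraries of one group did not enter the rule, though the levels of both groups did. For each pair of neighbouring members, the replicate 1 minus replicate 2 difference of a member was set against that of the next member. In lower runs the correlation over 69 pairs was r = 0.03 (Spearman's rho 0.03) in the RNAi libraries, against r = 0.52 (rho 0.53) in the WT libraries. Over all 12118 pairs of consecutive IDs in the table it was r = 0.04 (rho 0.03) in the RNAi libraries and r = 0.11 (rho 0.11) in the WT libraries. Both genes of a pair in lower runs deviated the same way in 56.5% of pairs in the RNAi libraries and in 66.7% in the WT libraries, against 51.1% and 52.9% of all pairs. The neighbours in lower runs thus deviated together more in the WT libraries than pairs of the table did at large, without matching for level. By the rule these members were high in WT, with medians of 37.8 and 38.6 normalised CPM, against 3.64 and 4.08 in the RNAi libraries. The added 1 in log2(normalised CPM + 1) shrinks gaps at low levels, so the RNAi and WT correlations are not like for like. All pairs share the same libraries and genes are not replicates, so no p-value is given.

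Pairs of exactly 2 consecutive lower IDs, which the rule leaves out as too short, gave r = 0.10 (rho 0.14) in the RNAi libraries and r = 0.37 (rho 0.43) in the WT libraries over 191 pairs. Of the 24 lower runs with 3 IDs and none removed, 8 (33.3%) had all members deviating one way between the RNAi libraries and 12 (50%) between the WT libraries. With members at a mean of at least 5 CPM the share was 38.5% in the RNAi libraries and 38.5% in the WT libraries. With the median of all genes taken off each replicate difference it was 25% in the RNAi libraries and 50% in the WT libraries. So the contrast between RNAi and WT in this share was not seen among members with a mean of at least 5 CPM, which leave fewer runs. Over neighbouring pairs of those members in lower runs, r was 0.12 in the RNAi libraries and 0.55 in the WT libraries. The shares among all 8644 stretches of 3 consecutive IDs were 25.6% in the RNAi libraries and 28.5% in the WT libraries. Of the 12 lower runs that deviated one way in WT, 7 were higher in replicate 1 and 5 in replicate 2. In the higher runs r was 0.09 (rho 0.09) in the RNAi libraries and 0.17 (rho 0.08) in the WT libraries over 76 pairs, and 7 and 4 of 21 intact runs of 3 deviated one way. Both genes of a pair in higher runs deviated the same way in 55.3% of pairs in the RNAi libraries and in 44.7% in the WT libraries. The gaps themselves were smaller in RNAi. For members of lower runs the median gap between libraries was 0.16 in RNAi and 0.35 in WT, and for members of higher runs 0.17 in RNAi and 0.34 in WT. Whether the correlations differ between groups or directions was not tested.

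The lower runs with the widest gaps between the WT libraries, named here after their values were seen, were those from Csa7G452190 and from Csa3G852590. Csa7G452190 had 0.999 and 1.4 normalised CPM in the RNAi libraries, against 21.5 and 6.18 in the WT libraries. Csa7G452200 had 36.2 and 39.7 in the RNAi libraries, against 553 and 222 in the WT libraries. Csa7G452210 had 6.99 and 11.3 in the RNAi libraries, against 55.0 and 26.7 in the WT libraries. WT replicate 1 was the higher WT library throughout this run, and WT replicate 2 throughout the other. Csa3G852590 had 19.9 and 18.8 normalised CPM in the RNAi libraries, against 54.1 and 112 in the WT libraries. Csa3G852600 had 12.3 and 8.99 in the RNAi libraries, against 15.9 and 109.5 in the WT libraries. Csa3G852610 had 58.8 and 63.2 in the RNAi libraries, against 251 and 327 in the WT libraries. Csa3G852600 was the only member that did not pass limma's test. Each correlation was also taken without the 2 runs with the widest gaps in that group and direction. In lower runs it was then r = -0.06 (rho -0.06) over 64 pairs in the RNAi libraries and r = 0.45 (rho 0.45) over 65 pairs in the WT libraries. In higher runs it was r = 0.04 (rho 0.06) over 72 pairs in the RNAi libraries and r = 0.00 (rho -0.07) over 71 pairs in the WT libraries, so the WT value of 0.17 in higher runs rests on the runs from Csa1G044870 and Csa1G501830.

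**Figure D5:**
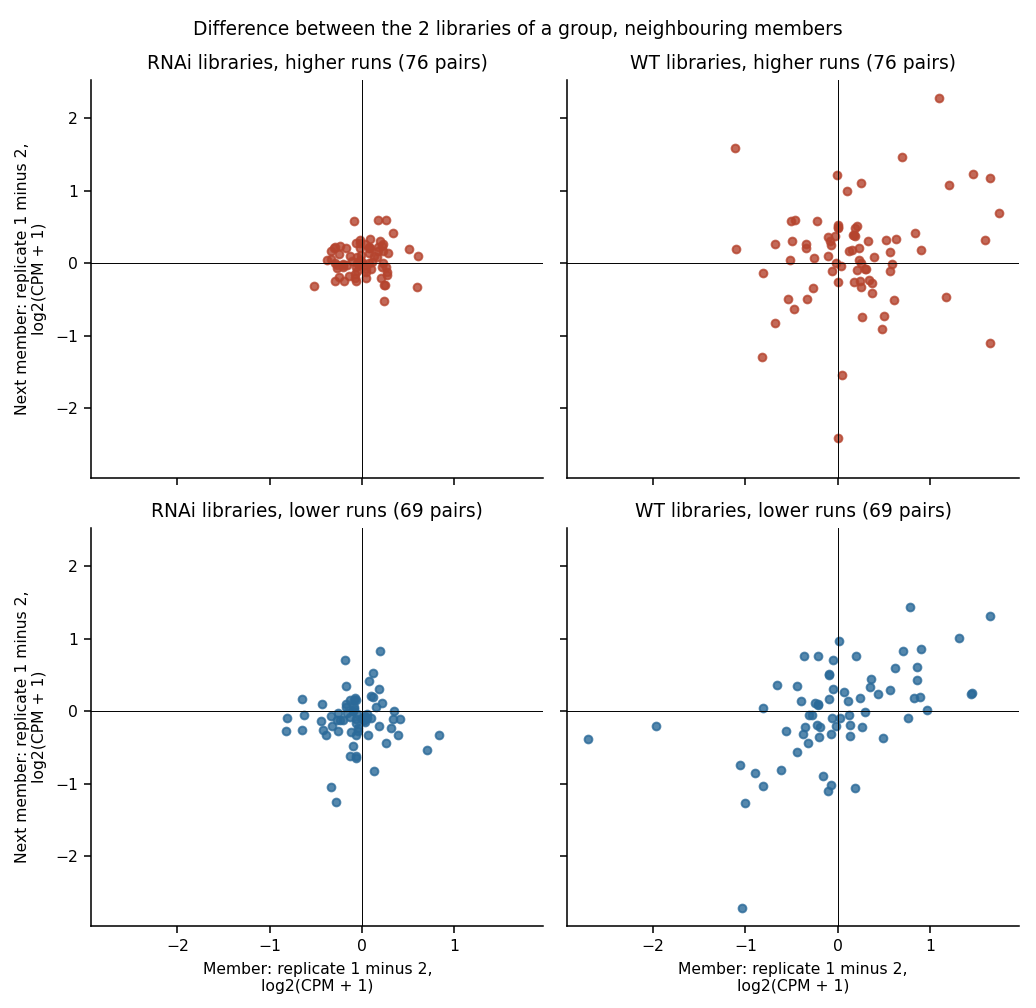
Replicate 1 minus replicate 2 difference on the log2(normalised CPM + 1) scale of a member (horizontal axis) and of the next member of its run (vertical axis), for the RNAi libraries (left) and the WT libraries (right), in higher runs (top, 76 pairs) and lower runs (bottom, 69 pairs); each point is 1 pair of neighbouring members. The points of lower runs stay near the centre in the RNAi libraries (r = 0.03) and spread along the diagonal in the WT libraries (r = 0.52).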

How the data were processed

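RNA-seq libraries of 2 RNAi and 2 WT leaf samples were analysed from 1 table. TopHat and HTSeq are named in the submitters' processing notes; the sources used here give neither their versions nor the genome build, strand setting or scaling. The authors deposited a normalised signal per gene, called CPM in the table's name; columns total between 869612.6 and 1209165.3. In each column 100% of values were whole multiples of 1 step to within 0.01 read, which gave back whole reads. No value columns were left out.

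Differences used log2(normalised CPM + 1). Runs were found on all IDs with numbered prefixes, 6 of them with 5 digits, read as numbers. limma (version 3.58.1, R 4.3.3) with a mean-variance trend tested the 17491 genes with at least 1 CPM in 2 libraries, over all genes at once. The run finder and the test were tested on simulated data.

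Named runs, higher and lower apart, included the 2 with the most IDs, ties going to the larger median size of difference. Among higher runs, 11 tied at 4 IDs. Among runs that kept at least 3 members, the 3 others with the largest smallest difference were named. Of such runs, those with the widest and the narrowest range were also named. The members and the lists were chosen with earlier results of these data known.

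Alternatives covered pseudocounts, filters, scaling, thresholds, run length, gaps, a replicate block, each library left out, and for the replicate differences a minimum of 5 CPM and the removal of the median of all genes, edgeR (version 4.0.16) and DESeq2 (version 1.42.0). The reads of near-identical or overlapping neighbours may be split or shared by the counting, which was not tested.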

Additional observations from a re-analysis of the deposited data

How the results depend on the processing

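The number of members moved most with the rule itself. For higher runs, against 115 members in 39 runs, a pseudocount of 2 gave 41 members in 16 runs, a threshold of 1 gave 342 in 114, a threshold of 2 gave 31 in 13, a minimum of 2 IDs gave 590 in 299, a minimum of 4 IDs gave 40 in 11, a filter of 5 CPM in 2 libraries gave 57 in 21, and plain CPM gave 190 in 65. For lower runs, against 109 members in 38 runs, a threshold of 1 gave 257 in 83, a threshold of 2 gave 44 in 16, a minimum of 2 IDs gave 462 in 229, and a minimum of 4 IDs gave 22 in 6. Plain CPM less the median of all genes, added after seeing the data, gave 79 higher and 135 lower members. Leaving out 1 library gave 99 to 125 higher and 99 to 127 lower members, and 64 to 71 of the 77 runs stayed whole. With a pseudocount of 2, 38 of the 77 did, and of the 13 named runs those from Csa1G033010, Csa2G358860, Csa4G639850, Csa5G550210, Csa6G366250 and Csa6G499100 did not.

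With the members held fixed, the median difference of higher runs was 2.39, against 2.71 with a pseudocount of 0.5, 2.06 with 2, 2.67 with plain CPM and 2.41 to 2.44 with 1 library left out. That of lower runs was -2.58, against -2.89, -2.19 and -2.31 under the first 3 of these. The median range within higher runs was 1.55, against 1.30, 1.70 and 1.66, and 1.53 to 1.70 with 1 library left out. Within lower runs it was 1.09, against 1.31 with a pseudocount of 0.5 and 1.09 to 1.30 with 1 library left out. The causes were not tested.

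Across all genes, limma called 5427 higher and 5165 lower; leaving out 1 library gave 2242 to 6295 higher and 1854 to 6091 lower, the lowest counts coming without RNAi replicate 1 (2242 and 1854) and RNAi replicate 2 (2368 and 2055). The library left alone in its group was taken to be as variable as the others. The replicate block gave 4900 higher and 4724 lower calls; no label ties equal numbers to a plant or day. Replicate differences in RNAi and WT had a correlation of -0.09 over genes, and replicate numbers were treated as unpaired. On the recovered reads edgeR gave 5181 calls of higher genes and 5100 of lower ones, against 5131 and 5237 with DESeq2. With a pseudocount of 0.5 the correlation of neighbours in lower runs in the RNAi libraries was -0.01, against 0.03. In the WT libraries it was between 0.52 and 0.55 with other pseudocounts, a minimum of 5 CPM or the median of all genes removed. Without the 2 runs with the widest gaps it was 0.45. The rule that chose the runs was the same in each of these settings. No median difference changed sign, but the members were held fixed and the rule had set the sign of each, so nothing is read from this. Depth limits the 30 members with under 10 reads in their low group.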
